A study of Drosophila melanogaster with 2 samples.

Results

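The nuclear genes of respiratory complexes II to V were examined for regions recovered with Crg-1-GFP from the chromatin of adult fruit flies. Members were the protein-coding genes whose Ensembl symbol starts with Sdh, UQCR-, COX and a digit, or ATPsyn, together with RFeSP, Cyt-c-p, Cyt-c1 and blw. The mitochondrial genes were left out. The rule found 52 of 13945 protein-coding genes on the 6 arms, of which 8 belonged to complex II, 12 to complex III with cytochrome c, 16 to complex IV and 16 to complex V. Among them, 18 have a symbol made of a subunit name followed by an L and in some cases a digit, as COX4L beside COX4, and are called L genes here. For 14 of them the gene of the shorter name is also a member. The other 34 comprise subunits of the complexes, cytochrome c and the assembly factor Sdhaf3.

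The respiratory chain lies in the inner mitochondrial membrane. Complex II (succinate dehydrogenase) passes electrons to ubiquinone, complex III passes them to cytochrome c, and complex IV (cytochrome c oxidase) reduces oxygen. Complex V, the ATP synthase, uses the proton gradient that the pumping complexes build. In Drosophila many of these nuclear genes have a duplicate copy, and the duplicates are known mainly for expression in the testis.

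Chromatin came from whole adults of mixed sex and unknown age, of a line stably expressing Crg-1 with GFP at its C terminus, and was immunoprecipitated with an antibody against GFP. Crg-1 is a forkhead-family transcription factor. The data formed 1 group of 2 libraries, which the labels number as biological replicates 2 and 3, from separate biosamples that share a donor label. Deposited were a list of 30000 candidate regions per replicate, a pooled list of 30000 made with both, and a thresholded set. The thresholded set held the 3707 regions that passed the authors' test of reproducibility (irreproducible discovery rate, IDR), and these proved to be the top 3707 of the pooled list by signal. Both replicates were set against 1 shared control alignment, and no list from untagged flies was analysed here. Whether the regions depend on the tag or the line was therefore not tested. The tissue of origin is not resolved in whole flies, so strong binding in few cells and weak binding in many cannot be told apart. Read depth is not given in the lists. With no second group there is no contrast between samples, and shares of genes are given as descriptions beside the same share over all protein-coding genes, with no test.

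A thresholded region with its summit, the position of highest signal, within 500 bp of a start site was present at 18 of the 52 members (34.6%), against 22.9% of all protein-coding genes. All 18 were among the 34 members that are no L genes, of which they made up 52.9%. Any region of the pooled list, which runs down to background, was present at 37 members (71.2%), against 57.6% of all genes. Among the 1000 strongest pooled regions this order did not hold, with 3 members (5.77%), which were blw, COX6B and COX5A, against 7.90% of all genes. Among the 1854 thresholded regions of higher signal, 6 members (11.5%) had a region, against 13.7% of all genes. The members' regions thus lay mostly in the weaker part of the thresholded set, whose signal ran between 109.7 and 1889.4 with a median of 161.2.

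The libraries gave like counts when taken singly. With the 3707 strongest regions of a library in place of the thresholded set, 16 members (30.8%) had a region in replicate 2, against 22.6% of all genes, and 17 (32.7%) in replicate 3, against 22.4%. The genes were not all the same. Of the 18 members with a thresholded region, 11 ranked in the top 3707 of both replicates, 4 of replicate 2 alone (Sdhaf3, UQCR-14, UQCR-C2 and COX7A), 2 of replicate 3 alone (ATPsynD and ATPsynO), and RFeSP of neither. Among all 13945 protein-coding genes, 3195 had a thresholded region and 2575 had a region in the top 3707 of both replicates. Over the 34 members with a region in both replicate lists, the Spearman correlation of their ranks was 0.719, and over the 6938 genes with one it was 0.837. Both figures are descriptions across genes, which share their libraries. The strongest summits of the 2 replicates lay a median of 42.0 bp apart at the 18 members, against 27.0 bp at all genes with a thresholded region. They were within 100 bp of each other at 13 of the 18 (72.2%), against 85.3%.

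**Figure D1:**
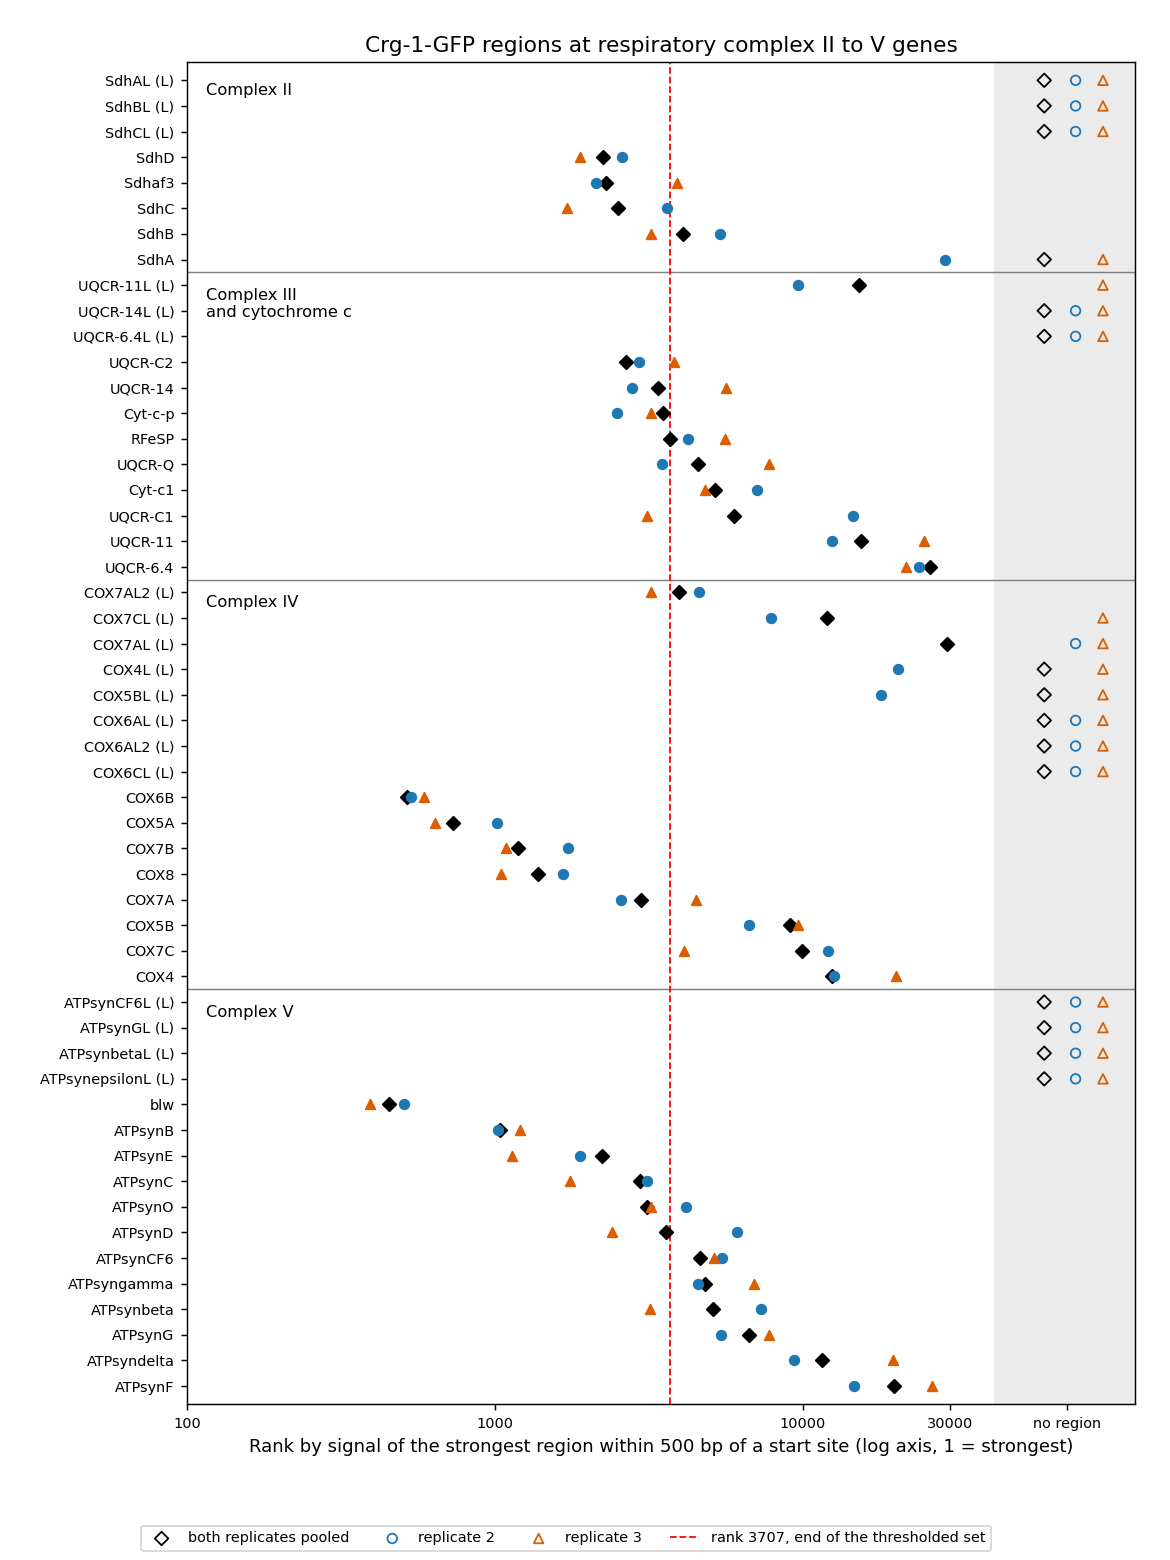
Rank by signal of the strongest region within 500 bp of a start site (log axis, 1 is the strongest) for each of the 52 members, in the pooled list (diamonds), replicate 2 (circles) and replicate 3 (triangles); open symbols in the grey band mean that the list held no region there. The 18 members with a thresholded region lie left of the dashed line at rank 3707, and no L gene (marked L) does so in the pooled list.

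Complex II genes with a thresholded region numbered 3 of 8 (37.5%), or 3 of the 5 that are no L genes, against 22.9% of all genes. SdhD (FBgn0039112), a membrane anchor subunit, had its strongest region at chr3R:23760344-23760783 (dm6), with its summit in an exon 36 bp downstream of the start site. Its signal was 145.3 in the pooled list (rank 2250), 83.4 in replicate 2 (rank 2579) and 64.7 in replicate 3 (rank 1895). SdhD was within the top 3707 of both libraries. Sdhaf3 (FBgn0038437), which helps to assemble the iron-sulphur subunit, had a region at chr3R:16482170-16482609 with its summit 62 bp downstream. The signal was 143.5 in the pooled list (rank 2303), 92.4 in replicate 2 (rank 2125) and 44.3 in replicate 3 (rank 3905). In replicate 3 this region fell just short of the top 3707.

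SdhC (FBgn0037873), the other membrane anchor subunit, had a region at chr3R:11210021-11210460 with a pooled signal of 136.8 (rank 2518), 69.6 in replicate 2 (rank 3620) and 69.1 in replicate 3 (rank 1717). Its summit lay 392 bp upstream of SdhC and only 6 bp from the start site of the divergent gene Tctp, so the region is nearer to Tctp. SdhB, the iron-sulphur subunit, ranked 4094 in the pooled list with a signal of 103.7, just outside the thresholded set. SdhA, the flavoprotein that oxidises succinate, was the only member of the 34 without a pooled region within 500 bp. Its replicate 2 region there ranked 28976 with a signal of 19.6. With a distance of 1000 bp SdhA had a thresholded region.

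For complex III and cytochrome c, 4 of 12 genes (33.3%) had a thresholded region, or 4 of the 9 that are no L genes, against 22.9% of all genes. Without replicate 2 the count was 2 (16.7%), against 22.4% of all genes. UQCR-C2 (FBgn0250814), a core subunit, had a region at chr3L:16584067-16584506 (dm6) with its summit in an exon, 14 bp downstream of the nearer of its 2 start sites. The signal was 132.6 in the pooled list (rank 2675), 78.0 in replicate 2 (rank 2945) and 45.0 in replicate 3 (rank 3809). UQCR-14 (FBgn0030733), a small subunit, had a region at chrX:16286078-16286517, summit 10 bp downstream, with 115.1 in the pooled list (rank 3396), 80.2 in replicate 2 (rank 2790) and 35.8 in replicate 3 (rank 5638). Both genes ranked higher in replicate 2 than in replicate 3.

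Cyt-c-p (FBgn0284248) encodes the cytochrome c of somatic cells, the mobile carrier between complexes III and IV. Its region at chr2L:16719575-16720014, summit 137 bp upstream, had a signal of 112.5 in the pooled list (rank 3525), 85.1 in replicate 2 (rank 2486) and 49.5 in replicate 3 (rank 3222). The strongest summits of the replicates were 201 bp apart at this gene. RFeSP (FBgn0021906), the Rieske iron-sulphur protein, had a region at chr2L:1613938-1614377, summit 2 bp downstream, with 109.7 in the pooled list (rank 3703), 64.1 in replicate 2 (rank 4227) and 36.0 in replicate 3 (rank 5581). RFeSP was thus at the very end of the thresholded set and in the top 3707 of neither library. UQCR-Q ranked 4567, Cyt-c1 5169 and the core subunit UQCR-C1 5984 in the pooled list, while UQCR-11 ranked 15453 and UQCR-6.4 ranked 26005. In all, 4 genes of this complex were in the top of replicate 2 and 2 in that of replicate 3.

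Complex IV held 2 of the 3 strongest members, and 5 of its 16 genes (31.2%), or 5 of the 8 that are no L genes, had a thresholded region, against 22.9% of all genes. COX6B (FBgn0031066), a nuclear-encoded subunit of the oxidase, had a region at chrX:19744148-19744587 (dm6) with its summit 33 bp upstream of the start site. Its signal was 305.9 in the pooled list (rank 517), 183.9 in replicate 2 (rank 534) and 115.5 in replicate 3 (rank 590). COX6B stood close to the same rank in every list. Its annotated start is also that of CG18809 on the same strand, and the divergent genes CG33932 and Rpp20 start 63 bp from the summit. The 101 bases centred on the summit are shown for COX6B, as the strongest member with a summit just upstream of its start. They hold none of the words searched for, so no base is in capitals.
COX6B, chrX:19744318-19744418, minus strand: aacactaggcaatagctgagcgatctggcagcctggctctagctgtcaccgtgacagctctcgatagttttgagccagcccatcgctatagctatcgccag

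COX5A (FBgn0019624) had a region at chr3R:11819331-11819770 with 262.0 in the pooled list (rank 729), 137.1 in replicate 2 (rank 1019) and 111.5 in replicate 3 (rank 639). The summit was 48 bp upstream of its second start site and 131 bp from the divergent gene glo. COX7B (FBgn0040793) had a region at chr3L:17425124-17425563 with 207.4 in the pooled list (rank 1185), 104.9 in replicate 2 (rank 1733) and 87.2 in replicate 3 (rank 1084). Its summit lay between divergent start sites, 133 bp from COX7B and 127 bp from Sec3, an exocyst gene. COX8 (FBgn0263911) had a region at chr3L:21539341-21539780, summit 114 bp upstream, with 191.2 in the pooled list (rank 1376), 107.0 in replicate 2 (rank 1669) and 88.4 in replicate 3 (rank 1048). These 3 genes were in the top of both libraries.

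COX7A (FBgn0040529) had a region at chr3R:8340818-8341257, summit 5 bp downstream and 62 bp from the divergent gene Arl2, with 124.3 in the pooled list (rank 2991), 83.8 in replicate 2 (rank 2560) and 40.9 in replicate 3 (rank 4492). It was in the top of replicate 2 alone. COX5B (rank 9094), COX7C (9925) and COX4 (12483) had pooled regions well below the thresholded set. At COX5B and COX7C the strongest summits of the replicates were 665 and 613 bp apart, so these lists do not place 1 common site there.

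In complex V 6 of 16 genes (37.5%), or 6 of the 12 that are no L genes, had a thresholded region, against 22.9% of all genes. blw (FBgn0011211), the alpha subunit of the catalytic head, had the strongest region of all members, at chr2R:22798721-22799160 (dm6) with its summit 158 bp upstream. Its signal was 326.1 in the pooled list (rank 453), 187.5 in replicate 2 (rank 508) and 138.7 in replicate 3 (rank 394). ATPsynbeta, which forms the catalytic head together with blw, ranked 5116 in the pooled list, 7310 in replicate 2 and 3199 in replicate 3. Within 500 bp the 2 partners of the head thus differed widely in rank in every list. With a distance of 1000 bp, or with overlaps counted in place of summits, ATPsynbeta also had a thresholded region.

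Of the stalk subunits, ATPsynB, ATPsynO and ATPsynD had a thresholded region. ATPsynB (FBgn0019644) had a region at chr3L:9729761-9730200, summit 18 bp upstream, with 219.4 in the pooled list (rank 1042), 136.9 in replicate 2 (rank 1024) and 82.8 in replicate 3 (rank 1207). ATPsynO (FBgn0016691), the subunit that joins stalk and head, had a region at chr3R:15265371-15265810 with its summit at the start site and 121.4 in the pooled list (rank 3111), 64.4 in replicate 2 (rank 4185) and 49.7 in replicate 3 (rank 3209). ATPsynB was in the top of both libraries and ATPsynO of replicate 3 alone. ATPsynD (FBgn0016120), also of the stalk, had a region at chr3R:19094824-19095263, summit 44 bp downstream, with 111.6 in the pooled list (rank 3582), 51.7 in replicate 2 (rank 6096) and 57.7 in replicate 3 (rank 2395). ATPsynD shares its region with the divergent gene mRpL55, whose start is 139 bp from the summit.

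Of the membrane subunits, ATPsynE (FBgn0038224) had a region at chr3R:14326478-14326917 with 146.1 in the pooled list (rank 2226), 99.1 in replicate 2 (rank 1886) and 85.2 in replicate 3 (rank 1132). The summit was 249 bp upstream of ATPsynE and 9 bp from the start site of Afti, so it is nearer to Afti. ATPsynC (FBgn0039830), which forms the rotor ring, had an intronic region at chr3R:31218438-31218877 with 125.3 in the pooled list (rank 2959), 75.6 in replicate 2 (rank 3113) and 68.4 in replicate 3 (rank 1747). The strongest summits of the replicates lay 854 bp apart at ATPsynC, so its 2 libraries ranked different sites first. The remaining stalk and membrane subunits that are no L genes ranked lower. These were ATPsynCF6 (pooled rank 4634), ATPsyngamma (4805), ATPsynG (6668), ATPsyndelta (11513) and ATPsynF (19747). By library, 4 complex V genes were in the top of replicate 2 and 7 in that of replicate 3.

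Just past the end of the thresholded set came COX7AL2, SdhB, UQCR-Q, ATPsynCF6 and ATPsyngamma, with pooled signals of 105.7, 103.7, 97.1, 96.1 and 94.1. Among the 7414 strongest pooled regions, 2 times as many as the thresholded set, 27 members (51.9%) had a region, against 34.8% of all genes. By complex, and leaving the L genes aside, the thresholded shares were 60.0% of 5 genes in complex II, 44.4% of 9 in complex III with cytochrome c, 62.5% of 8 in complex IV and 50% of 12 in complex V, against 22.9% of all protein-coding genes. Each share rests on 12 genes or fewer, and the complexes were not tested against each other.

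**Figure D2:**
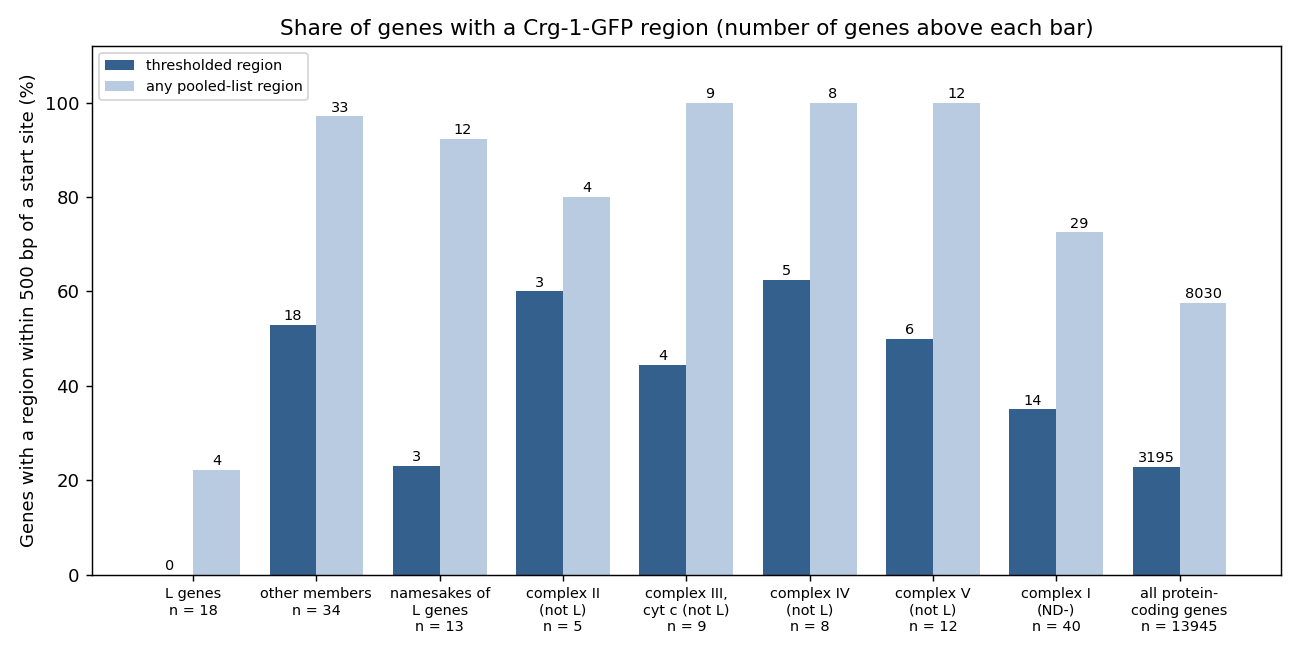
Percent of genes with a thresholded region (dark bars) and with any region of the pooled list (light bars) within 500 bp of a start site, for L genes, other members, the namesakes of L genes, each complex without its L genes, complex I and all protein-coding genes; the number of genes stands above each bar. The bars read 0 and 4 of 18 for L genes, 18 and 33 of 34 for the other members, and 3195 and 8030 of 13945 for all genes.

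None of the 18 L genes had a thresholded region, against 18 of the 34 other members. A pooled region was present at 4 L genes (22.2%), against 33 other members (97.1%) and 57.6% of all genes. In the replicate lists, 13 L genes had no region in either, 4 had one in replicate 2 alone, and 1, COX7AL2, had one in both. The other members had a region in both replicate lists at 33 of 34 genes. Among all 13945 protein-coding genes, 6938 had a region in both.

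The L genes also differ from the other members in gene structure. A single start site is annotated for 16 of the 18 L genes, against 18 of the 34 other members and 10246 of all 13945 protein-coding genes. The longest transcript has a median of 2.0 exons in L genes, against 3.0 in the other members. Among genes with 1 start site, 0 of 16 L genes had a thresholded region and 3 a pooled region. The 18 other members with 1 start site had a thresholded region in 11 cases (61.1%) and a pooled region in 17. Over all genes with 1 start site the shares were 18.1% and 50%. The part of gene structure in the values of the L genes was not tested.

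The 4 L genes with a pooled region differed widely. COX7AL2 had 105.7 in the pooled list (rank 3954), 61.1 in replicate 2 (rank 4586) and 49.6 in replicate 3 (rank 3210), with the summit 286 bp downstream of the nearest of its 3 start sites. COX7CL had 52.6 in the pooled list (rank 11995) and 44.0 in replicate 2 (rank 7909), and UQCR-11L had 45.5 in the pooled list (rank 15188) and 39.0 in replicate 2 (rank 9617), with no region in replicate 3 for either. COX7AL had 29.8 in the pooled list (rank 29403), with none in either replicate. COX7AL2 was thus the only L gene found by both libraries. COX4L and COX5BL had a low region in replicate 2 alone, with signals of 24.5 (rank 20389) and 26.5 (rank 17993).

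Each L gene was set beside its namesake, the member whose symbol it carries. This gave 14 pairs with 13 namesakes, since COX7A has both COX7AL and COX7AL2. COX6AL, COX6AL2, COX6CL and ATPsynepsilonL have no namesake among the members. Pairing went by symbol alone, so a counterpart under another symbol would be missed. In 9 of the 14 pairs only the namesake had a pooled region, in 4 both had one, in 1 neither (SdhAL and SdhA), and in none only the L gene. Of the 4 pairs with both, the namesake ranked higher in the pooled list in 3. The exception was UQCR-11L at rank 15188, against UQCR-11 at rank 15453, with signals of 45.5 and 45.0. The order could differ by library. COX7AL2 ranked 4586 in replicate 2, against 2560 for COX7A, and 3210 in replicate 3, against 4492. The namesakes themselves had thresholded regions in 3 of 13 cases (23.1%: SdhC, UQCR-14 and COX7A), close to the 22.9% of all genes, and a pooled region in 12. Members with no L gene to their name therefore held the other 15 thresholded regions.

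Several copies lie close to their namesake. COX5BL starts 122 bp from the end of COX5B, COX7CL lies 281 bp from COX7C and COX7AL 2625 bp from COX7A. For these neighbours the pooled signals were none at COX5BL against 62.7 at COX5B, 52.6 at COX7CL against 59.2 at COX7C, and 29.8 at COX7AL against 124.3 at COX7A. Only in the COX7C pair were both of like rank in the pooled list. In replicate 2 COX7CL ranked 7909, against 12035 for COX7C. In replicate 3 COX7C ranked 4121 and COX7CL had no region. Of 6 genes known for expression in the male germ line (bam, Mst87F, dj, can, aly and bb8), 1 had a thresholded region (16.7%), against 22.9% of all genes. A pooled region was present at 2 of them (33.3%), against 57.6% of all genes. The thresholded region was that of bam, with a pooled signal of 167.2 at 468 bp from a start site, named after its value was seen. The part of germ cells in the values of the L genes was not tested.

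**Figure D3:**
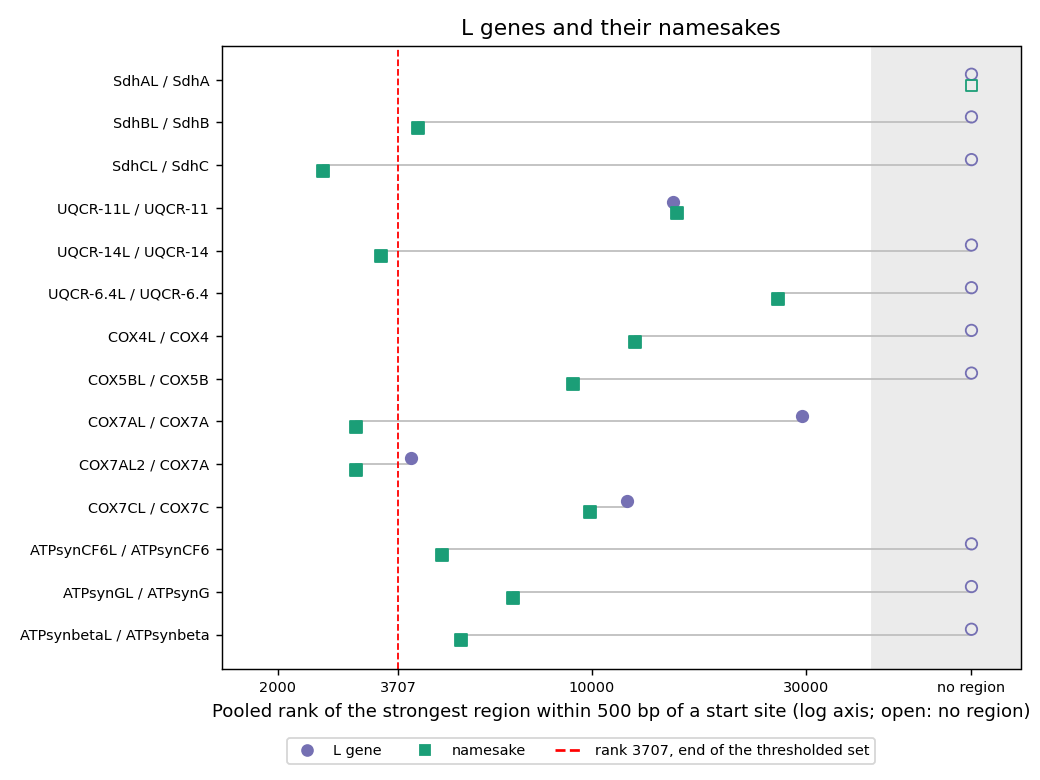
Pooled rank (log axis) of the strongest region within 500 bp of a start site for the 14 pairs of an L gene (circles) and its namesake (squares); open symbols in the grey band mean no region. Only the 3 namesakes SdhC, UQCR-14 and COX7A (with 2 pairs) lie left of the dashed line at rank 3707, and only UQCR-11L stands left of its namesake.

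The summits of the members lay close to their start sites. At the 18 members the median distance to the nearest start site was 46.0 bp, against 111 bp over the 3195 genes with a thresholded region, and 10 of the 18 (55.6%) were within 50 bp, against 23.6%. They fell upstream of the nearest start site at 9 members (50%), at it in ATPsynO and downstream at 8, whereas 83.4% of all genes had an upstream summit. Complex I genes, the nearest comparison in the same chain, had an upstream summit in 14 of 14 cases. A start site of another protein-coding gene lay within 500 bp of the summit at 8 of the 18 members (44.4%), against 59.6% of all genes with a region. The member was the nearest gene in 15 of 18 cases (83.3%), against 71.3%. The 3 exceptions were SdhC, COX7B and ATPsynE.

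Words were searched on both strands, and a match is a description of letters and no proof of a site. The forkhead core GTAAACA was within 50 bp of the summit at 0 of 18 members, against 6.02% of all 3707 thresholded summits. A second forkhead word, ATAAACA, was likewise there at 0 of 18, against 6.04%. For the 2542 thresholded summits within 500 bp of a protein-coding start, the closer comparison, the shares were 4.68% and 5.31%. With 18 summits such shares are too small to be set apart. The counts also rest on the thresholded summit alone. At SdhD the replicate 3 summit was at the start site, and GTAAACA lies 34 bp upstream of that start. In promoters, taken as 250 bases before to 50 after the most upstream start site, GTAAACA was found at 4 of the 52 members (7.69%: SdhD, ATPsynB, ATPsynF and ATPsynbeta), against 9.19% of all promoters. These were 0 of the 18 L genes and 4 of the 34 other members (11.8%). ATAAACA was found at 9 members (17.3%), against 13.1%, and these were 0 of the 18 L genes and 9 of the 34 other members (26.5%). Within those 34, GTAAACA was present at 2 of 18 with a thresholded region (11.1%) and 2 of 16 without (12.5%). For ATAAACA the counts were 3 of 18 (16.7%) and 6 of 16 (37.5%). The E-box CACGTG was present at 3 members (5.77%), against 4.20%, and the DNA replication-related element TATCGATA (DRE) at 3 (5.77%), against 9.36%.

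The core of Motif 1, GGTCACAC, a word of Drosophila core promoters, gave a larger share. It was present in the promoters of 11 of the 52 members (21.2%), against 7.70% of all genes. Those 11 were 1 of the 18 L genes (5.56%) and 10 of the 34 other members (29.4%). With a thresholded region, 6 of 18 members (33.3%) held the word, against 11.5% of all genes with such a region. Of the other members without one, 4 of 16 (25.0%) held the word. Within 50 bp of the summit it was found at 2 of 18 members (11.1%), RFeSP and UQCR-C2. The share was 1.94% of all thresholded summits and 2.75% of those within 500 bp of a protein-coding start. The DRE was found there at COX7A alone (5.56%), against 5.51% of the summits near a protein-coding start. Those words are shown with 10 bases on either side, on the strand of the gene (dm6), with the word in capitals. The forkhead core of the SdhD promoter, 34 bp upstream of its start, is added for comparison.
RFeSP, chr2L:1614137-1614164, minus strand: acttgagtgcGGTCACACtggttctcag
UQCR-C2, chr3L:16584233-16584260, plus strand: ctggtactcgGTGTGACCattttggagc
COX7A, chr3R:8341028-8341055, minus strand: gacatcgatgTATCGATAatacatcgat
SdhD, chr3R:23760618-23760644, minus strand: tgaccgctacTGTTTACcgataacaaa

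The nuclear respiratory gene (NRG) element, known from Drosophila genes of energy metabolism, was searched as TTACATAA, TTACGTAA and TTATATAA on both strands. Because the element is known from genes of this kind, its shares among members and related genes are descriptions and no independent finding. In the promoter window it was present at 1 of the 52 members (1.92%), against 5.18% of all genes. In the 500 bp downstream of the most upstream start site, a window chosen after the data were seen, it was present at 26 members (50%), against 5.72% of all genes. All 26 were among the 34 that are no L genes (76.5%), and 0 of 18 L genes had it there, against 8 of the 13 namesakes (61.5%). By complex, without L genes, it was found at 4 of 5 genes of complex II, 6 of 9 of complex III with cytochrome c, 5 of 8 of complex IV and 11 of 12 of complex V. Complex I had it at 23 of 40 genes (57.5%) and the list of citric acid cycle and carrier genes at 13 of 19 (68.4%), so it was not particular to complexes II to V. In the 500 bp upstream the share was 11.8% of the 34, against 9.65% of all genes.

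In the class of 200 to 299 bp downstream, 16 of the 34 members (47.1%) held an element, against 1.33% of all genes. In the classes beyond it the shares were 20.6%, against 1.21%, and 14.7%, against 1.23% for 400 to 499 bp, where the search ended. The element nearest the start lay a median of 237 bp from it, and the 32 elements lay between 93 and 484 bp of the 500 bp searched. An intron held 25 of them, an exon 6 and an exon edge 1. The word TTACATAA made up 20, TTACGTAA 10 and TTATATAA 2. The 9 intronic elements shown, with 26 bases on either side, on the strand of the gene (dm6) and with the element in capitals, give each complex and the range of words. TTATGTAA is TTACATAA read on the other strand.
SdhD, chr3R:23760363-23760422, minus strand: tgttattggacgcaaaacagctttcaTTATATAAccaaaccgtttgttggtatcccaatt
Cyt-c-p, chr2L:16720144-16720203, plus strand: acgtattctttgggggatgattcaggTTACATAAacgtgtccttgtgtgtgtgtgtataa
RFeSP, chr2L:1613898-1613957, minus strand: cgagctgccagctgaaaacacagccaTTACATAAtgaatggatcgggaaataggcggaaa
UQCR-C1, chr3R:14890447-14890506, plus strand: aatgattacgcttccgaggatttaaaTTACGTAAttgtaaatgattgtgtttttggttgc
COX5B, chr2L:6558153-6558212, plus strand: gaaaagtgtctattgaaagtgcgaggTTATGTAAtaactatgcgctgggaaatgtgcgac
COX7B, chr3L:17425668-17425727, plus strand: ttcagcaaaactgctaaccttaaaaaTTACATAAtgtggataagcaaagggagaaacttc
ATPsynB, chr3L:9730203-9730262, plus strand: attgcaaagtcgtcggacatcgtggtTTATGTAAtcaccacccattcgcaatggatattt
ATPsynD, chr3R:19095186-19095245, plus strand: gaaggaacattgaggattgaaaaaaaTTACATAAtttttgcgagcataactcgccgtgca
ATPsynO, chr3R:15265803-15265862, plus strand: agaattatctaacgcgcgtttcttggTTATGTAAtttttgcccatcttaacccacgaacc

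**Figure D4:**
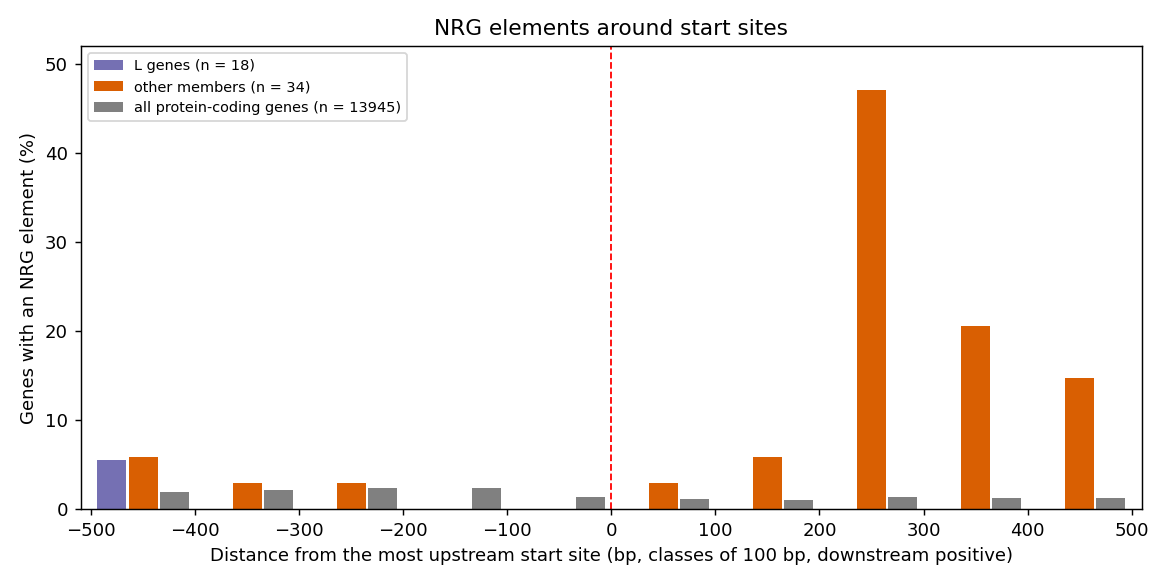
Percent of genes with an NRG element in each class of 100 bp around the most upstream start site (x axis, downstream positive), for the 18 L genes, the 34 other members and all 13945 protein-coding genes. The other members reach 47.1% in the class of 200 to 299 bp, where L genes have none and all genes 1.33%.

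The Crg-1-GFP summits lay apart from the elements, though some of the regions reached one. Of the 18 members with a thresholded region, 15 (83.3%) had an element downstream, against 11 of the 16 other members without one (68.8%). The summit was 104 to 581 bp from the nearest element, with a median of 251 bp, and it lay within 100 bp in 0 of 15 cases and within 200 bp in 3 (UQCR-14, ATPsynD and SdhD). No summit window of 101 bases held an element, against 1.75% of all thresholded summits and 1.85% of those within 500 bp of a protein-coding start. With 18 windows such shares are too small to be set apart. The thresholded regions of SdhD, UQCR-14, ATPsynD and COX7A themselves each contained an element. The summit was at or downstream of the nearest start site in 9 of the 15 members with an element and in 0 of the 3 without (SdhC, COX5A and COX8). Over all genes with a region, it was at or downstream in 25.3% of the 233 with an element and 15.9% of the 2962 without. The COX5A summit lay 192 bp downstream of its most upstream start, from which the elements were placed. Complex I, with an element downstream at 23 of 40 genes, had an upstream summit in 14 of 14 cases. The group with a region and no element held 3 members, and a link between element and summit side was not tested. A thresholded region was present at 29.2% of all genes with an element downstream and 22.5% of those without.

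**Figure D5:**
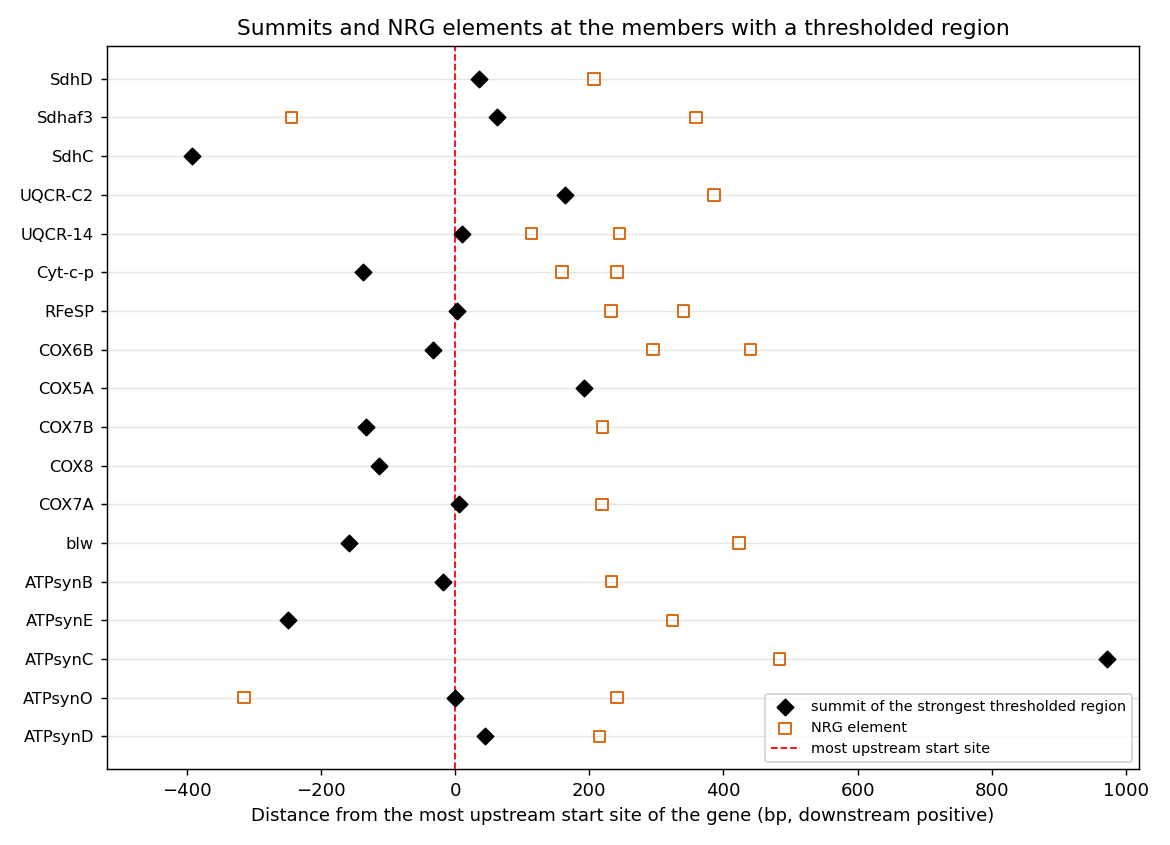
Distance in bp from the most upstream start site (dashed line, downstream positive) of the summit of the strongest thresholded region (diamonds) and of each NRG element within 500 bp (squares), for the 18 members with a thresholded region. Squares gather between 100 and 500 bp downstream, apart from the upstream ones of Sdhaf3 and ATPsynO, while diamonds spread around the start, with ATPsynC at 972 bp.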

How the data were processed

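ChIP-seq regions of 2 libraries of 1 group were analysed. Per the deposited descriptions, the authors made each replicate list from that replicate and 1 shared control alignment, the pooled list from both, and the thresholded set by IDR. The sources used here name no aligner, peak caller or version. Signal, as deposited, is the height of a region in the authors' own units; its scale differs between lists, and it was used to rank and filter regions of 1 list only. A further deposited column holds −log10 q-values and was not used. Depth is unknown. Lists on the dm3 build were not used here.

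Start sites of all transcripts came from Ensembl release 115 (BDGP6.54), without transposable elements, and sequence from the RefSeq Release 6 genome (dm6). A gene's value is its strongest region with a summit within 500 bp. Printed coordinates count from 1. Python 3.11.15, numpy 2.4.6 and scipy 1.17.1 were used, and the counting was tested on simulated regions. Described in detail were the members with a thresholded region, the L genes with their namesakes, the 5 strongest others, and genes that share a member's summit. From the comparison lists, genes with a thresholded region were named, up to 10 by signal. Members and lists were chosen with earlier results of these data known. Of 13 names in the list of assembly factors and regulators, mtRNApol matched no gene.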

Additional observations from a re-analysis of the deposited data

How the results depend on the processing

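Limits: the lists give no depth and no untagged control, 2 libraries share a donor label, and summits near divergent genes cannot be assigned to 1 of them. Of the alternatives, 69 values stayed within 1.5 times the value reported and 22 moved further. With the 1854 thresholded regions of higher signal the counts were 6 members (11.5%, against 13.7% of all genes), 0 for complex II, 0 for complex III, 2 for complex V (12.5%) and 0 namesakes, so each of these shares fell below that of all genes. With thresholded regions that overlap a top region in both replicates they were 11 members (21.2%, against 18.4% of all genes), 1 for complex III (8.33%) and 1 namesake (7.69%), both below the share of all genes. Namesakes were below all genes also at 250 bp (15.4%, against 19.6%) and with the nearest gene only (15.4%, against 17.0%). A distance of 1000 bp gave 1 L gene and 5 namesakes, against 25.6% of all genes, and counting overlaps in place of summits gave 1 L gene, against 24.3%. With 2 times as many pooled regions, added after the data were seen, the counts were 7 for complex III, 10 for complex V, 1 L gene and 7 namesakes, against 34.8% of all genes. The L gene was COX7AL2 each time. With each replicate alone the counts were 16 to 17 members, 3 to 3 for complex II, 2 to 4 for complex III (2 without replicate 2, 16.7%, against 22.4% of all genes), 5 to 5 for complex IV, 4 to 7 for complex V, 0 to 1 L genes, 3 to 3 namesakes and 22.4 to 22.6% of all genes. The NRG element was found at 1 member in the promoter window (1.92%, against 5.18% of all genes), at 26 downstream (50%, against 5.72%) and at 31 within 500 bp on either side of any start site (59.6%, against 17.5% of all genes). The forkhead core was found at 9 members in the wider window (17.3%, against 26.8%). Where counts moved, the cause was not tested.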

Other observations

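Among related genes outside complexes II to V, a thresholded region was present at 14 of 40 complex I genes (35.0%), 11 of 19 genes of the citric acid cycle, pyruvate oxidation and mitochondrial carriers (57.9%), 3 of 6 other respiratory chain genes and 2 of 12 assembly factors and regulators, against 22.9% of all protein-coding genes. The strongest was mAcon1, the mitochondrial aconitase, with a pooled signal of 517.2 (rank 129), followed by Idh3g, a subunit of isocitrate dehydrogenase, with 376.1 (rank 315). Complex I followed with ND-B22 at 372.7 (rank 324) and ND-42 at 372.2 (rank 325). The mitochondrial single-stranded DNA binding protein gene mtSSB had 350.9 (rank 377). ND-ASHI and the fumarase gene Fum1 both had 298.9 (rank 540), the same region. Idh3b had 275.5, ND-24 had 269.9 and ND-SGDH had 240.6. Among the 1000 strongest regions were those of 7 of 40 complex I genes (17.5%) and 4 of 19 genes of the citric acid cycle and carrier list (21.1%), against 7.90% of all genes.

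The other respiratory chain genes with a thresholded region, named after their values were seen, were ox, a complex III gene, with 210.1 (rank 1148), Cyt-c-d, the cytochrome c of the male germ line, with 158.2 (rank 1919), and levy, a complex IV gene, with 123.9 (rank 3014). The summit lay 349 bp from a start site of Cyt-c-d. Its somatic partner Cyt-c-p had 112.5 (rank 3525) with the summit at 137 bp, and their difference was not tested.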
